A study of Homo sapiens with 12 samples.

Results

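KCNQ1OT1 and the joint SNRPN-SNHG14 transcription unit are imprinted RNAs, read from the paternal chromosome only. KCNQ1OT1 is a long, mostly unspliced nuclear RNA that starts inside an intron of the potassium channel gene KCNQ1, runs antisense to it and is known for silencing neighbouring genes on the chromosome it is made from. SNRPN encodes SmN, a core protein of spliceosomal small nuclear ribonucleoproteins, and its transcript continues into SNHG14, whose introns carry the tandem C/D box small nucleolar RNAs (snoRNAs) SNORD116 and SNORD115. The distal end of SNHG14 runs antisense to UBE3A, the ubiquitin ligase gene of Angelman syndrome, and loss of the paternal SNORD116 region is tied to Prader-Willi syndrome.

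Protein-protected sites on these transcripts were taken from protein interaction profile sequencing (PIP-seq) of HEK293T cells, a transformed human embryonic kidney line. Cells of all groups had been cross-linked with 1% formaldehyde for 10 minutes. The 12 libraries form 4 groups of 3 replicates: footprints made with a single-strand-specific nuclease (ssRNase, RNase ONE) and their digestion controls, and footprints made with a double-strand-specific nuclease (dsRNase, RNase V1) and their digestion controls, in which protein had been removed before digestion. Each of the 6 replicate lists holds the sites that the authors called in a footprint library against its control at a false discovery rate of 5%, and a merged list joins the sites of all 6. Nothing in the labels says that replicates were separate cultures, so every p-value measures a spread between lists that may be technical.

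Members were the sites whose midpoint lay, in build hg19, at chr11:2629558-2721228 on the minus strand (KCNQ1OT1, 91.7 kb) or at chr15:25200000-25670000 on the plus strand (SNRPN and SNHG14, 470 kb). The merged list held 257 such sites of 293016, of which 251 lay in KCNQ1OT1 and 6 in SNRPN-SNHG14. The opposite strand of the same intervals held 11 and 74 merged sites. The replicate lists themselves were of unequal length: they held 209922, 57481 and 172079 sites with ssRNase, against 23925, 28413 and 21561 sites with dsRNase. Levels are therefore also given in ppm, the bases of sites in the locus out of every 1000000 bases of sites in the list. The lists hold no read counts, so the depth behind a site is unknown, and a stretch without sites shows neither that its RNA was absent nor that it was free of protein.

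SNHG14 differs from KCNQ1OT1 in the repeated snoRNAs of its introns, and a unit of each cluster is shown. These are the repeats in which no list had a site, with the C box (TGATGA, searched in the first 15 nt) and the D box (CTGA, searched in the last 12 nt) in capitals. Both are transcripts of GENCODE v29, build GRCh38, on the plus strand of chromosome 15, written as DNA letters.
SNORD116-1: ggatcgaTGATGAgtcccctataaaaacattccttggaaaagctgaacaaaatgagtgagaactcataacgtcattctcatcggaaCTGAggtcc
SNORD115-1: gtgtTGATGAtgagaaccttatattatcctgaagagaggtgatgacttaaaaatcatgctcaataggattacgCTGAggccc
Of the 30 SNORD116 transcripts in the annotation, 28 (93.3%) held both boxes in these end windows on their own strand, as did 40 of 48 SNORD115 transcripts (83.3%). Of all 955 snoRNA transcripts, 199 (20.8%) did. That set includes both clusters and was not limited to C/D box snoRNAs, so it is not a like background. SNORD116 copies were 83 to 102 nt long (median 92.0 nt) and SNORD115 copies 71 to 86 nt (median 82.0 nt). Related copies follow one another in each cluster, and the sources used here do not say how the authors treated reads that fit several copies.

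KCNQ1OT1 carried protein-protected sites in every list, with both nucleases. With ssRNase the transcript strand held 197, 64 and 160 sites in replicates 1 to 3, against 18, 18 and 19 sites with dsRNase. These covered 9908, 3472 and 8453 bases with ssRNase, against 564, 516 and 602 bases with dsRNase. Sites of the ssRNase lists covered 10.8%, 3.79% and 9.22% of the transcript, against 0.615%, 0.563% and 0.657% with dsRNase. The second ssRNase list, also the shortest ssRNase list over the whole genome, was the low one of its group, and the groups did not overlap. The means were 7278 ± 3375 bases with ssRNase and 560.7 ± 43.1 bases with dsRNase (SD of 3 lists each), a ratio of 13.0 (exact two-sided permutation p = 0.1, the smallest that 3 against 3 lists can give).

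Set against the length of the lists, the ratio was smaller. As a share of its own list, KCNQ1OT1 took 972.0, 1191 and 1043 ppm of the site bases with ssRNase, against 684.9, 527.0 and 753.5 ppm with dsRNase. All ssRNase lists lay above all dsRNase lists, and the second ssRNase list was now the highest of the 6. The means were 1069 ± 112 ppm with ssRNase and 655.2 ± 116 ppm with dsRNase (SD over 3 lists each), 1.63 times as much (exact two-sided permutation p = 0.1, again the smallest possible). Strand composition also differed between the lists, since the minus strand held 54.8%, 60.9% and 59.7% of all site bases with ssRNase, against 78.5%, 64.5% and 75.5% with dsRNase. Per 1000000 site bases on the minus strand alone, KCNQ1OT1 stood at 1826 ± 114 with ssRNase and 895.5 ± 92.7 with dsRNase (SD over 3 lists each), 2.04 times as much. Counted as sites per 10000 sites of a list, the means were 9.94 ± 1.04 with ssRNase and 7.56 ± 1.24 with dsRNase (SD of 3 lists each), 1.32 times as much.

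**Figure D1:**
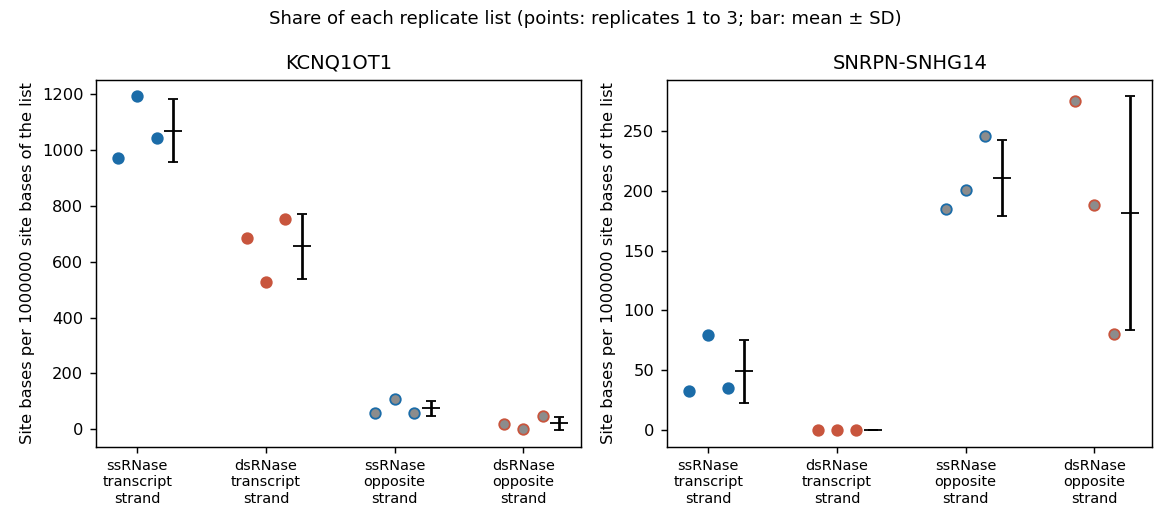
Share of site bases in ppm (vertical axis) for KCNQ1OT1 (left) and SNRPN-SNHG14 (right), with ssRNase left of dsRNase for each strand. Points are replicates 1 to 3 and bars are the mean ± SD; on the KCNQ1OT1 transcript strand ssRNase lies between 972.0 and 1191 and dsRNase between 527.0 and 753.5, while on the SNRPN-SNHG14 transcript strand all dsRNase lists are at 0.

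Protection in KCNQ1OT1 lay almost wholly on the strand of the RNA itself. The transcript strand held 94.2%, 91.8% and 94.6% of the site bases of both strands with ssRNase, against 97.4%, 100% and 94.1% with dsRNase. Over the whole lists the minus strand held 54.8%, 60.9% and 59.7% with ssRNase, against 78.5%, 64.5% and 75.5% with dsRNase. The opposite strand, from which KCNQ1 is read, held 9, 7 and 9 sites with ssRNase, against 1, 0 and 1 with dsRNase. Over the 6 lists the mean was 3919 bases on the transcript strand and 242.2 bases on the opposite strand, and the transcript strand was higher in 6 of 6 lists (exact two-sided sign-flip permutation p = 0.03125, the smallest that 6 lists allow). The transcript strand's share averaged 93.5 ± 1.55% with ssRNase and 97.2 ± 2.98% with dsRNase (SD of 3 lists each), a difference within the spread of the lists (exact two-sided permutation p = 0.3). This difference, ssRNase minus dsRNase, was -3.62 percentage points, and -0.594 with each strand scaled to its own site bases.

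Sites filled the 5′ part of KCNQ1OT1 and stopped before its 3′ end. The first 30 kb held 5727, 2074 and 4852 site bases with ssRNase, against 219, 242 and 347 with dsRNase. The next 30 kb held 4046, 1303 and 3513 site bases with ssRNase, against 345, 200 and 223 with dsRNase. The last 31.7 kb held 135, 95 and 88 site bases with ssRNase, against 0, 74 and 32 with dsRNase. The fall after the first 60 kb was thus present in all 6 lists, and the order of the first and second 30 kb was not the same in all: dsRNase replicate 1 held more in the second. The first 60 kb accounted for 98.6%, 97.3% and 99.0% of the transcript's site bases with ssRNase, against 100%, 85.7% and 94.7% with dsRNase.

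The density over those 60 kb was 162.9, 56.3 and 139.4 site bases per kb with ssRNase, against 9.40, 7.37 and 9.50 per kb with dsRNase. The site nearest the 5′ end lay 0.77, 0.87 and 1.28 kb into the transcript with ssRNase, against 3.34, 6.11 and 2.02 kb with dsRNase. The last site lay at 71.1, 65.6 and 66.7 kb with ssRNase, against 58.0, 73.5 and 65.6 kb with dsRNase. No list had a site in the part beyond 80 kb. On the minus strand, stretches of the same length as KCNQ1OT1 on either side of it held 0 sites in all 6 lists, so the run of sites began inside the transcript's limits and ended inside them. Fewer RNA molecules in the 3′ part and less protection per molecule cannot be told apart in lists without read counts.

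**Figure D2:**
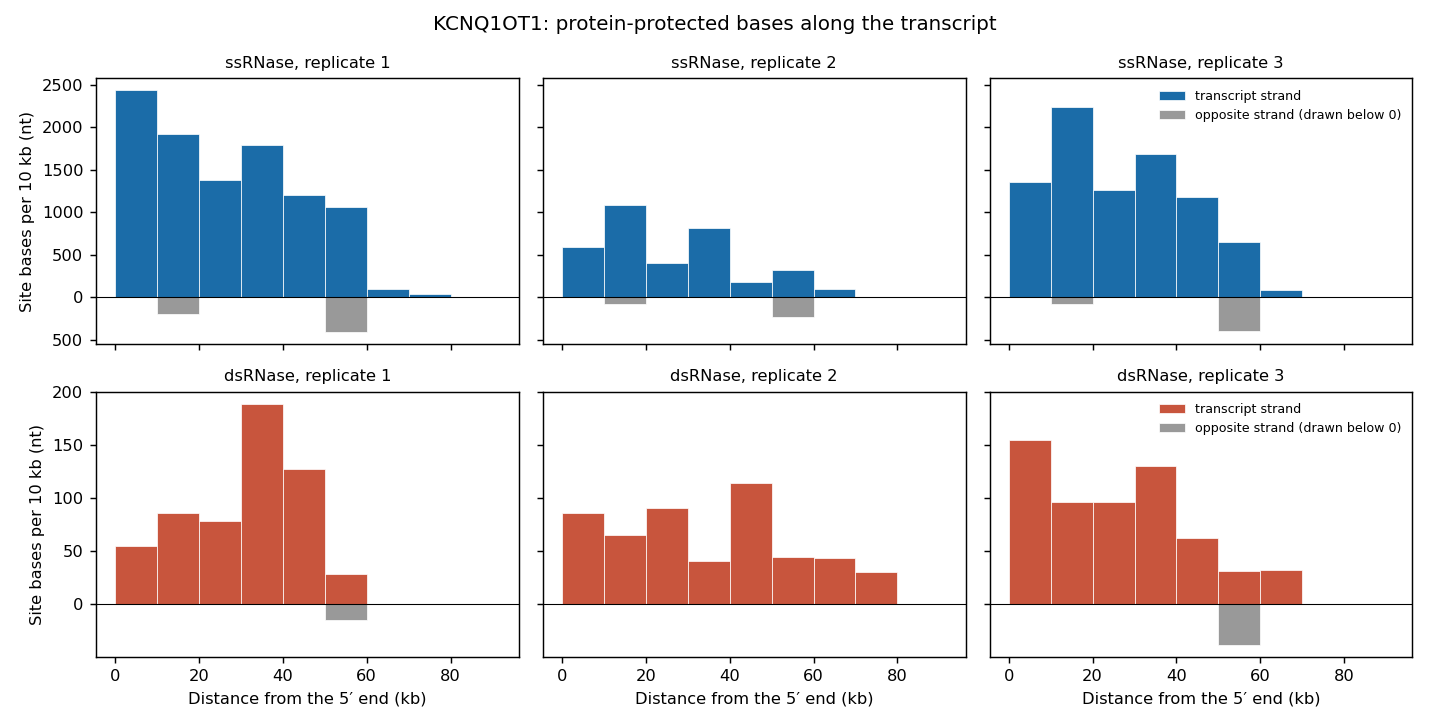
Site bases in 10 kb steps along KCNQ1OT1 in each replicate list, ssRNase above dsRNase (the rows have different vertical scales), with the opposite strand drawn below 0 in grey. The transcript strand is filled in each list over the first 60 kb, ssRNase replicate 1 reaches 2431 bases in the first step, and no list has a site in the last 2 steps.

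The few sites on the KCNQ1 strand lay mostly in the middle of the interval. The first 30 kb held 2 merged sites of that strand, the next 30 kb held 9, and the last 31.7 kb held none. In that next 30 kb they covered 407, 231 and 401 bases with ssRNase, against 15, 0 and 38 bases with dsRNase. Of the opposite-strand sites in the whole interval, 6 of 9, 3 of 7 and 5 of 9 overlapped a KCNQ1OT1 site of the same ssRNase list on the other strand. Looked at from the transcript, 7 of 197 (3.55%), 3 of 64 (4.69%) and 5 of 160 (3.13%) KCNQ1OT1 sites of the ssRNase lists had such a facing site, against 7.16%, 11.7% and 8.68% of all sites in those lists. With dsRNase, 0 of 18, 0 of 18 and 0 of 19 had a facing site, against 0.510%, 0.690% and 0.979% in the whole lists.

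Site lengths in KCNQ1OT1 stood close to those of the whole lists. Their median length was 43, 45 and 47 nt with ssRNase (43, 44 and 42 nt over the whole lists), against 32, 30 and 31 nt with dsRNase (33, 33 and 34 nt over the whole lists). The authors' score, used here only to rank sites within a list, placed the median KCNQ1OT1 site at percentile 55.2, 55.8 and 61.2 with ssRNase, against 25.6, 38.8 and 43.7 with dsRNase. KCNQ1OT1 sites thus ranked above the middle of every ssRNase list and below the middle of every dsRNase list.

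Sites found by dsRNase in KCNQ1OT1 were met more often in ssRNase lists than in another dsRNase list, as were those of the whole dsRNase lists, and the ssRNase lists are the longer ones. Of the dsRNase sites, 17 of 18 (94.4%), 14 of 18 (77.8%) and 17 of 19 (89.5%) overlapped a site of an ssRNase list by at least 1 nt, against 73.9%, 75.5% and 76.6% of all sites in the dsRNase lists. A smaller number, 7 of 18 (38.9%), 9 of 18 (50%) and 10 of 19 (52.6%) overlapped a site of another dsRNase list, against 51.4%, 47.9% and 54.9% over the whole lists. Of the ssRNase sites, 122 of 197 (61.9%), 61 of 64 (95.3%) and 114 of 160 (71.3%) were met in another ssRNase list, against 52.8%, 89.9% and 62.2% over the whole lists. In dsRNase lists 27 (13.7%), 18 (28.1%) and 27 (16.9%) of those ssRNase sites were met, against 15.1%, 23.2% and 15.4% over the whole lists. Where the overlap had to cover at least 50% of the site, these were 16 (8.12%), 8 (12.5%) and 14 (8.75%). Over the whole ssRNase lists, 9.73%, 15.9% and 10.5% of sites met that limit, so KCNQ1OT1 lay below its list in each. The short second ssRNase list had the highest share of sites found elsewhere, in KCNQ1OT1 as over the whole list.

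In the merged list, 33 of the 251 KCNQ1OT1 sites (13.1%) had both nucleases behind them, beside 12.0% of all merged sites and 14.8% of those on the minus strand. A further 211 (84.1%) came from ssRNase lists alone and 7 (2.79%) from dsRNase lists alone, beside 83.4% and 4.57% of all merged sites. All 3 ssRNase lists stood behind 47 sites (18.7%, background 12.8%), and a single list behind 124 (49.4%, background 57.4%). All 6 lists stood behind 2 sites (0.797%, background 0.696%). The median merged site was 48 nt long, against 44 nt over the whole merged list, and the sites with both nucleases had a median of 62 nt in KCNQ1OT1 and in the whole merged list alike.

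**Figure D3:**
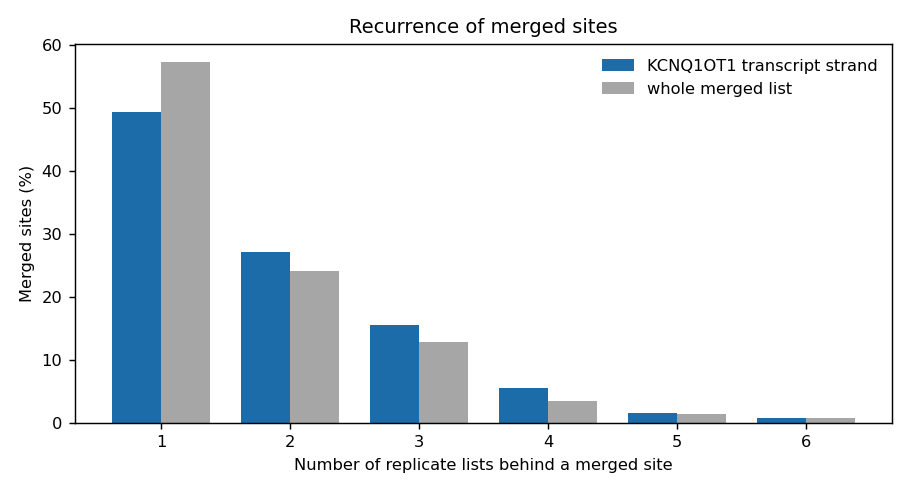
Percent of merged sites (vertical axis) by the number of replicate lists behind them (horizontal axis), for the 251 KCNQ1OT1 transcript-strand sites (blue) and the whole merged list of 293016 sites (grey). Sites with a single list make up 49.4% in KCNQ1OT1 and 57.4% in the whole list, and sites with all 6 lists 0.797% and 0.696%.

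The 2 sites of KCNQ1OT1 with all 6 lists behind them lay far apart. The first, chr11:2713831-2713910, was 80 nt long and 7.4 kb from the 5′ end, and the replicate lists covered 49, 79 and 46 of its bases with ssRNase, against 28, 24 and 34 with dsRNase. The second, chr11:2681131-2681193, was 63 nt long and 40.1 kb from the 5′ end, with 51, 35 and 63 bases with ssRNase, against 58, 41 and 37 with dsRNase. At this second site dsRNase covered about as much as ssRNase, and its score stood at percentile 96.8, 24.5 and 98.5 with ssRNase, against 85.7, 74.5 and 94.3 with dsRNase.

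Of the 4 sites with 5 lists behind them, the 3 longest are described. The site chr11:2703788-2703971 (184 nt, 17.3 kb from the 5′ end) held 110, 61 and 182 bases with ssRNase, against 32, 0 and 31 with dsRNase. The site chr11:2701141-2701289 (149 nt, 20 kb from the 5′ end) held 127, 75 and 149 bases with ssRNase, against 13, 31 and 0 with dsRNase, and its ssRNase scores were near the top of their lists, at percentile 99.8, 97.7 and 99.0. Each of these sites lacked exactly 1 dsRNase list. The same held for chr11:2655576-2655628 (53 nt), the only one of them past the first 60 kb, at 65.6 kb from the 5′ end, with 49, 44 and 51 bases with ssRNase, against 0, 15 and 32 with dsRNase. The longest merged site, chr11:2687585-2687801 (217 nt, 33.5 kb from the 5′ end), held 198, 120 and 96 bases with ssRNase, against 51, 0 and 0 with dsRNase.

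To set KCNQ1OT1 against the rest of the genome, the difference between the nucleases was tested with limma in all stranded windows of 10000 bp that held a site in at least 3 lists, on log2(ppm + 20). Of 31432 windows, 33.6% passed an adjusted p of 0.05, with 26.6% higher with ssRNase and 7.04% higher with dsRNase. This balance turned round in a separate fit of the 19860 windows with sites from each nuclease, adjusted over those windows alone. In that fit 132 (0.665%) were called higher with ssRNase and 622 (3.13%) higher with dsRNase. KCNQ1OT1 had 7 tested windows of the 9 that lie wholly inside it, all with sites from each nuclease. The 18.8% of minus-strand windows called higher with ssRNase is not a like background. It includes windows that met the filter through ssRNase lists alone, which fixes their direction. In the separate fit 0 of the 7 windows passed, and in the fit over all 31432 windows 1 passed. That window, chr11:2660001-2670000, held 103.7, 113.5 and 80.5 ppm with ssRNase, against 35.2, 46.0 and 38.8 with dsRNase. The groups did not overlap, and the difference was 0.98 on the log2 scale (SE 0.189, limma adjusted p = 0.0147). It passed neither when numbers of sites replaced bases, nor with a replicate block, nor when only windows with sites from each nuclease were fitted. By number of sites, 9211 of all 31432 windows passed in either direction, and with the block 0. Per 1000000 site bases of the same strand, 3 KCNQ1OT1 windows passed, beside 12176 of all 31432. These totals include windows with sites from a single nuclease. Without dsRNase replicate 1, 2 KCNQ1OT1 windows passed, 1 in each direction, beside 8134 of all 31432. Without dsRNase replicate 3, 2 passed, both higher with ssRNase, beside 8018 of all 31432.

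The 3 windows with the most protection ranked among the highest in the genome by their mean over the 6 lists. Window chr11:2700001-2710000 held 181.0, 378.0 and 278.7 ppm with ssRNase, against 120.2, 120.5 and 210.3 with dsRNase. Its mean was at percentile 99.0 of all tested windows, and the difference of 0.80 did not pass (log2 scale, SE 0.341, limma adjusted p = 0.125). Window chr11:2680001-2690000, at percentile 98.6, held 169.5, 247.3 and 196.0 ppm with ssRNase, against 259.9, 71.5 and 154.0 with dsRNase, with overlapping groups (log2 difference 0.43, limma adjusted p = 0.528). Window chr11:2710001-2720000, at percentile 98.3, is the one nearest the 5′ end and had 234.7, 211.7 and 204.0 ppm with ssRNase, against 66.8, 87.8 and 194.0 with dsRNase (log2 difference 0.91, limma adjusted p = 0.103).

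Of the 7 windows, 6 leaned to ssRNase and their groups did not overlap in 3, beside 40.1% of all windows with every ssRNase list above every dsRNase list. That percentage includes windows with ssRNase sites alone, where the filter keeps the groups apart, and all 7 windows here held sites from each nuclease. The window that leaned the other way, chr11:2650001-2660000, held 8.24, 15.1 and 10.9 ppm with ssRNase, against 0, 44.9 and 40.1 with dsRNase (log2 difference -0.45, limma adjusted p = 0.565). The median difference over the 7 windows was 0.80, beside 0.43 over all tested windows and 0.21 over tested minus-strand windows. Those wider sets also take in windows with sites from a single nuclease. On the KCNQ1 strand, window chr11:2700001-2710000 held 19.6, 27.8 and 9.87 ppm with ssRNase, against 0 in each dsRNase list. It met the 3-list filter through the ssRNase lists alone, which fixes the direction of any call, so no test is given for it. By the distance between the 6 values on the log2 scale, the windows elsewhere most like the leading one were chr11:760001-770000 on the minus strand (distance 0.609) and chr21:9820001-9830000 on the plus strand (0.649). Genes in these windows are not named, since no annotation of hg19 was used here.

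SNRPN-SNHG14 was almost empty of sites on its own strand and held more on the strand opposite. The transcript strand held 6, 5 and 5 sites with ssRNase, against 0, 0 and 0 with dsRNase. These covered 332, 231 and 284 bases with ssRNase (mean 282.3 ± 50.5, SD, n = 3), against 0 bases in each dsRNase list (exact two-sided permutation p = 0.1, the smallest possible). As a share of the list the ssRNase values were 32.6, 79.2 and 35.1 ppm, a mean of 49.0 ± 26.3 ppm (SD, n = 3), against 0 in each dsRNase list. No fold is given, since the dsRNase lists were all at 0. The plus strand over the same length before the interval held 4, 2 and 4 sites with ssRNase, against 0 in each dsRNase list, and the same length after it held 0 in all 6 lists.

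All the transcript-strand sites fell in a single stretch of 641 bp, chr15:25228293-25228933, which starts 28.3 kb into the interval and makes up 0.136% of it. The interval was divided by the known order of the genes, rounded to 10000 bp windows and not read from an annotation of the build: SNRPN (30 kb), the 60 kb up to SNORD116, the SNORD116 cluster (70 kb), the 50 kb between the clusters, the SNORD115 cluster (120 kb) and the distal part that faces UBE3A (140 kb). The stretch lies at the end of the first of these segments. Because the limits are rounded, whether the stretch falls inside SNRPN or past its end was not determined. Each of the other 5 segments held 0 transcript-strand sites in all 6 lists, the SNORD116 and SNORD115 clusters included. The snoRNA segments also held 0 sites on the opposite strand, so no spacing of sites could be set against the spacing of the repeats.

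**Figure D4:**
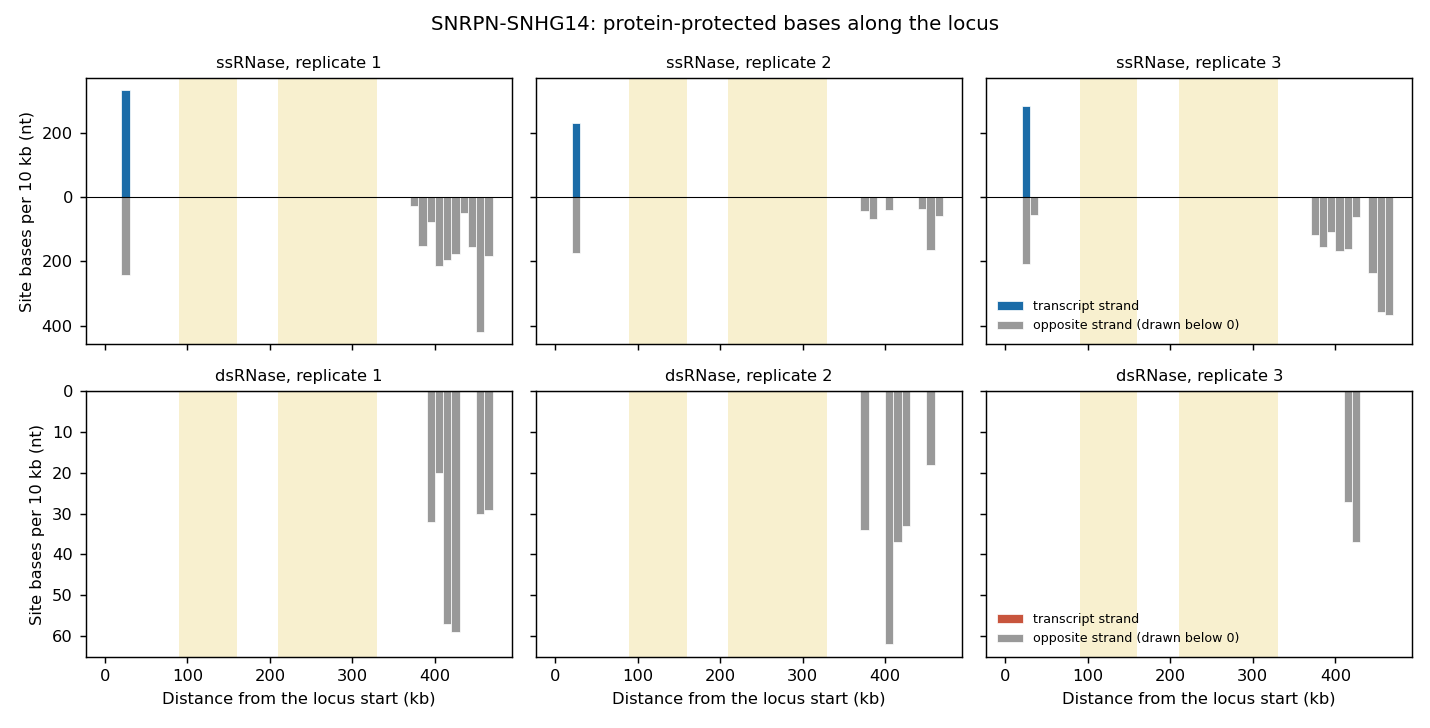
Site bases per 10 kb window along the SNRPN-SNHG14 interval in each replicate list, ssRNase above dsRNase (the rows have different vertical scales), with the opposite strand drawn below 0 in grey and the SNORD116 (left) and SNORD115 (right) segments shaded. The only transcript-strand bars are those of 332, 231 and 284 bases in the ssRNase lists near the start, both shaded segments are empty, and grey bars fill the distal end.

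Inside the stretch, the ssRNase lists placed their sites at nearly the same positions. Of the 6 merged sites, 5 had all 3 ssRNase lists behind them, and chr15:25228383-25228416 (34 nt) was found in replicate 1 only. The site chr15:25228431-25228495 (65 nt) had 64, 62 and 63 bases in ssRNase replicates 1 to 3, and its score stood at percentile 99.8, 98.4 and 98.1 of those lists. The longest, chr15:25228685-25228754 (70 nt), varied more, with 66, 30 and 70 bases and scores at percentile 53.0, 11.1 and 32.1. The others were chr15:25228293-25228351 (59 nt), chr15:25228803-25228866 (64 nt) and chr15:25228888-25228933 (46 nt), which held 59, 34 and 43 bases, 64, 61 and 63 bases, and 45, 44 and 45 bases in ssRNase replicates 1 to 3.

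The same stretch also held sites on the opposite strand. The ssRNase lists had 6, 5 and 5 transcript-strand sites there, beside 4, 3 and 3 opposite-strand sites. The opposite-strand sites covered 241, 174 and 207 bases with ssRNase, against 0 in each dsRNase list. Of the transcript-strand sites, 5 of 6, 2 of 5 and 3 of 5 overlapped an opposite-strand site of the same list, beside 7.16%, 11.7% and 8.68% of all sites in those lists. The top-scored site was faced by an opposite-strand site in replicate 3 only, where that facing site ranked at percentile 16.7.

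**Figure D5:**
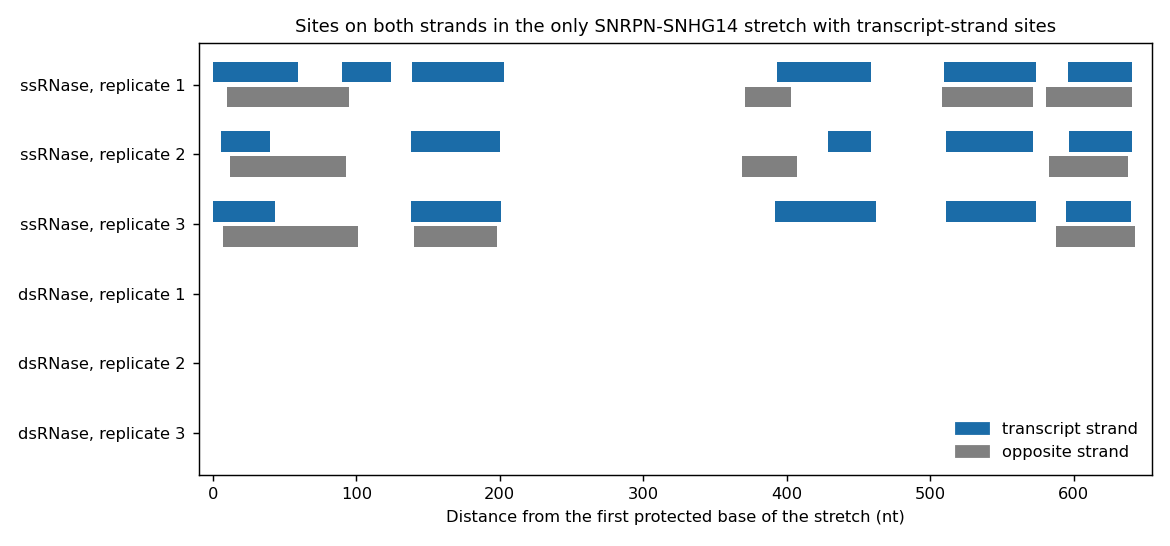
Sites of each replicate list in the 641 bp stretch that holds all SNRPN-SNHG14 transcript-strand sites, by distance from its first protected base; ssRNase lists stand above dsRNase lists, the transcript strand in blue and the opposite strand in grey. The ssRNase lists show 6, 5 and 5 transcript-strand sites and 4, 3 and 3 opposite-strand sites at similar positions, and the dsRNase lists show none.

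The window that contains the stretch, chr15:25220001-25230000 on the plus strand, was the only transcript-strand window of the 47 with a site in at least 3 lists. It held 32.6, 79.2 and 35.1 ppm with ssRNase, against 0 in each dsRNase list. The window met the filter through the ssRNase lists alone, which fixes the direction of its call (limma adjusted p = 0.0108), so the call supports nothing beyond these values. It could not be tested once sites from each nuclease were required. The windows most like it in all 6 lists were chr1:226170001-226180000 (distance 0.0460) and chr19:2070001-2080000 (0.0525), both on the plus strand and both at 0 with dsRNase.

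Over the whole interval the strand opposite SNRPN-SNHG14 held more sites than the transcript strand. It had 47, 12 and 44 sites with ssRNase, against 8, 6 and 2 with dsRNase. Over the 6 lists the mean was 141.2 bases on the transcript strand and 824.0 on the opposite strand, and the opposite strand was higher in 6 of 6 lists (exact two-sided sign-flip permutation p = 0.03125, the smallest that 6 lists allow). The transcript strand's share of site bases was 15.0%, 28.3% and 12.5% with ssRNase, against 0% in each dsRNase list. Most opposite-strand bases with ssRNase, and all of those with dsRNase, lay in the distal part whose opposite strand holds UBE3A. That part held 1646 of 1887, 412 of 586 and 1734 of 1996 bases with ssRNase, against 227, 184 and 64 with dsRNase. In windows 1 to 38, which end before UBE3A, the mean strand difference was -8.83 bases (exact two-sided sign-flip permutation p = 0.75).

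On the UBE3A strand both nucleases left sites, unlike on the transcript strand of the same interval. Of the 74 merged sites of the opposite strand, 9 had both nucleases behind them (12.2%, background 12.0%), and all 9 lay in the distal part. Over the whole opposite strand the share was 210.8 ± 31.8 ppm with ssRNase and 181.2 ± 98.0 ppm with dsRNase (SD of 3 lists each), with overlapping groups (exact two-sided permutation p = 0.8). Of 10 tested windows over the whole opposite strand, not the distal part alone, limma called 3 higher with ssRNase and 1 higher with dsRNase. The second kind stood beside 7.04% of all windows. The 3 higher with ssRNase held 0 in each dsRNase list and met the filter through ssRNase alone, which fixes the direction of their calls. Among them is the opposite strand of the window that contains the 641 bp stretch, outside the distal part. In the separate fit of windows with sites from each nuclease, 0 of 7 were called, beside 754 of all 19860. There 1 of the 7 had an unadjusted limma p under 0.05, beside 3188 of all 19860. The window higher with dsRNase, chr15:25620001-25630000, held 17.3, 0 and 7.78 ppm with ssRNase, against 71.7, 33.7 and 46.3 with dsRNase (log2 difference -1.33, limma adjusted p = 0.0254). That call was lost among windows with sites from each nuclease, with a replicate block, and without ssRNase replicate 2, ssRNase replicate 3, dsRNase replicate 1 or dsRNase replicate 3. Its neighbour chr15:25610001-25620000 leaned the same way without passing, with 19.1, 0 and 20.1 ppm with ssRNase, against 69.2, 37.8 and 33.8 with dsRNase (log2 difference -1.05, limma adjusted p = 0.0727).

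Set side by side, KCNQ1OT1 carried 1069 ± 112 ppm with ssRNase and 655.2 ± 116 ppm with dsRNase on its own strand, and SNRPN-SNHG14 carried 49.0 ± 26.3 ppm with ssRNase and 0 with dsRNase (SD of 3 lists each), over a longer interval. KCNQ1OT1 was higher in all 6 lists. The best-ranked site of SNRPN-SNHG14 stood at percentile 99.8, 98.4 and 98.1 of the ssRNase lists, beside 99.8, 97.9 and 99.3 for the best-ranked site of KCNQ1OT1 in each list. The lists do not measure how much of either RNA the cells held, so the levels were not set against expression.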

How the data were processed

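Sites are those the authors called in 12 PIP-seq libraries and deposited as 6 replicate lists and 3 merged lists. Per the labels' protocols, a duplex-specific nuclease step evened out the libraries. The submitters' processing notes name cutadapt 0.9.5, TopHat2 2.0.9 and hg19. The names of the deposited lists give CSAR as the caller and 5% as its false discovery rate. The score of a site is the authors' deposited value. Its scale is unstated, so it only ranked sites within a list. Other deposited columns hold position, strand and site names. Positions were read as 1-based. Read counts were not used here, so depth is unknown and no count model was fitted.

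The members and lists were chosen with earlier results of these data known. A site belonged to a locus or window by its midpoint. Nucleases were compared over lists by exact two-sided permutation tests, and strands by exact sign-flip permutation. All stranded 10000 bp windows with a site in at least 3 of 6 lists were fitted with limma 3.58.1 (R 4.3.3) on log2(ppm + 20), with Benjamini-Hochberg adjustment over all windows and a threshold of 0.05. The scripts were checked on simulated data. Sites were counted and compared with pandas 2.3.3, numpy 2.4.6 and scipy 1.17.1 in Python 3.11.15, and figures drawn with matplotlib 3.10.9.

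Described were the 3 member transcripts, in each locus the 3 windows with the highest mean ppm, up to 5 merged sites with the most lists behind them (ties by length), the longest merged site and the 2 windows elsewhere (chromosome 8 excepted) nearest to the leading window. The site chr15:25228383-25228416 and the windows chr11:2650001-2660000 and chr11:2660001-2670000 on the minus strand, chr11:2700001-2710000 on the plus strand, and chr15:25610001-25620000 and chr15:25620001-25630000 on the minus strand lie outside that rule and were named after their values were seen. The reference tables are of GRCh38, so no hg19 annotation or sequence was used, coordinates were not converted, and other imprinted genes were not analysed here. Alternatives were another pseudocount, other filters, scales and measures, the better-scoring 50% of sites, a stricter overlap, each list left out in turn and a replicate block.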

Additional observations from a re-analysis of the deposited data

How the results depend on the processing

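KCNQ1OT1 kept more ssRNase than dsRNase site bases under every alternative run, with exact permutation p-values that the design keeps at 0.1 or above. For SNRPN-SNHG14 the direction was fixed, since its dsRNase lists are all at 0 and no alternative could reverse it. The KCNQ1OT1 difference was 349.6 to 462.8 ppm with a list left out, and the SNRPN-SNHG14 difference 33.8 to 57.1 ppm. Of 7 tested KCNQ1OT1 windows, 1 passed with all lists and 1 to 2 with a list left out. With a list left out, 8018 to 12026 of all 31432 windows passed. Per 1000000 site bases of the same strand 3 of the 7 passed, beside 12176 of all 31432. By number of sites 0 passed, beside 9211 of all 31432, and with a replicate block 0. Where windows needed sites from each nuclease, a setting chosen after seeing the data, 0 passed, beside 754 of 19860. The SNRPN-SNHG14 window count was 1 with any list left out, which is no sign of stability since its dsRNase lists are all at 0, and 0 with the replicate block. That block passed 0 windows in the genome, against 10563 without it, although 11366 had an unadjusted limma p under 0.05, 1 of the 7 KCNQ1OT1 windows and the SNRPN-SNHG14 window among them. Replicate numbers did not pair the lists: over 31432 windows, same-numbered lists had deviations correlated at 0.02, -0.06 and -0.03. No list correlated best with the list of its own number. With the block, the sign-flip permutation p was 0.25 for the differences in bases, the smallest that 3 pairs allow, and 0.5 for the KCNQ1OT1 strand share.

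The KCNQ1OT1 strand difference was 2552 to 4309 bases with a list left out (exact permutation p = 0.0625, the smallest 5 lists allow). The SNRPN-SNHG14 strand difference was -806.6 to -477.0 bases with a list left out (same p), -277.0 among the better-scoring 50% of sites (exact permutation p = 0.0625), -8.83 in windows 1 to 38 and 37.5 in the stretch from the first to the last transcript-strand site, a setting chosen after seeing the data. The last 2 leave out the strand's UBE3A sites by construction, and the cause of the others was not tested. Strand shares of SNRPN-SNHG14 in windows 1 to 38 and among the better-scoring 50% were not run, since some dsRNase lists held no site there. When an overlap had to cover 50% of a site, the mean share of KCNQ1OT1 ssRNase sites met in a dsRNase list was 9.79%, against 19.6% with 1 nt. That of dsRNase sites met in another dsRNase list was 34.5%, against 47.2%. Over the whole lists, the 50% shares were 9.73%, 15.9% and 10.5% for ssRNase sites met in a dsRNase list. For dsRNase sites met in another dsRNase list they were 46.6%, 42.8% and 47.1%. Unknown depth limits every statement on stretches without sites.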
